A study of Mus musculus with 32 samples.

Results

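Among the genes that changed while mouse embryonic stem (mES) cells were driven towards primitive endoderm (PrE), 108 had a transient pulse of mRNA with its top at 4 h or 8 h. They were chosen from the deposited log2 values. A gene qualified if its mean of 4 replicates was highest at 4 h or 8 h, was at least 6 there, and stood at least 1.5 above both the 0 h mean and the 96 h mean. A deposited value of 6 corresponds to a normalized count of 58.2. Of 25093 rows with a gene symbol, in a table of 54233 rows, 3328 had their highest mean at 4 h or 8 h, 1366 of these reached 6, and 108 also met both margins. The pulse was highest at 4 h for 54 genes and at 8 h for the other 54. Symbols starting with Egr, Fos, Jun, Dusp, Spry, Spred or Etv were set aside by the rule, but no gene that met its limits carried such a name. The same rule with the top at 2 h gave 73 genes, and with the top at 16 h or 24 h it gave 88.

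The data are bulk RNA-seq of the KH2 ES cell line, labelled C57BL/6, which carries the transgene TRE:GATA6-DSREd2, a GATA6 coding sequence under a promoter that doxycycline (Dox) switches on. There were 8 time points (0, 2, 4, 8, 16, 24, 48 and 96 h) with 4 replicates each, 32 samples in all, and every sample carried the transgene and received LIF. Cells at 0 h grew without Dox in 2i medium, which holds the MEK inhibitor PD0325901 and a GSK3 inhibitor. At all later times cells had been moved to serum medium without these inhibitors and with 1 µg/ml Dox, for at most 12 h. From 16 h onwards they were in serum medium without Dox. Dox, serum and the release of both inhibitors therefore came together, and their shares in any difference from 0 h cannot be told apart.

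As background, a cell that meets serum or a newly made transcription factor first induces genes that need no new protein. Products of that wave then switch on or repress a later set of genes. A transcript pulse forms when synthesis stops and the mRNA decays, so that long-lived messages fall late. GATA6 is the transcription factor that specifies PrE, an epithelial layer around the epiblast of the late blastocyst. MEK and ERK relay FGF signals that favour the PrE fate. A gene with a pulse is higher in passing than at either end, and a comparison of the end points alone does not show it.

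Each sample held between 3190108 and 12301732 reads on genes, with a median of 8870662.5. Levels are given below as normalized counts, that is reads divided by the size factor of the sample, as mean ± SD with n = 4. A gene with at most 3 reads in every sample of a time point was treated as not measurable there, and a fold against it is a lower bound. The transgene had 0 reads at 0 h and a normalized count of 618 ± 110 after 2 h and 504 ± 119 after 8 h. Its count was lower but not 0 after Dox was removed, at 65.7 ± 14.2 after 16 h and 50.8 ± 29.9 after 24 h. It was at 81.6 ± 15.2 after 48 h and 115 ± 49.8 after 96 h. The stem cell factors Nanog and Sox2 were at 5875 ± 1219 and 1922 ± 293 at 0 h and at 473 ± 99.1 and 351 ± 43.8 after 8 h. Pdgfra, a marker of PrE, was at 6.95 ± 0.962, 2528 ± 313 and 6397 ± 141 at 0, 8 and 96 h. The means of Gata4, Sox17, Sox7 and Dab2, also PrE markers, were 337, 289, 55.8 and 96.0 after 8 h. After 96 h they were 6786, 1511, 2000 and 15174. Means of the stem cell genes Pou5f1, Zfp42 and Esrrb went from 9104, 2840 and 6820 at 0 h to 6264, 1148 and 934 after 8 h. In bulk RNA, fewer cells of a type and less RNA per cell cannot be told apart. Replicates 1 and 2 resembled each other, and replicates 3 and 4 each other, more than samples of different sets did (mean correlation of deviations from the time point mean 0.196 within a set and -0.196 between sets). The study says in general terms that replicates were carried out independently. What the 2 replicate sets were, and how the 4 RNA-seq replicates were made, was not given in the sources used here, so p-values measure the spread between these samples only.

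Genes that peaked at 4 h came on early. Their median level was 17.1% of the peak at 0 h and 60.6% by 2 h, and 38 of 54 were at 50% or more of their peak by 2 h. The median then passed from 68.8% after 8 h to 25.7% after 16 h, 11.7% after 24 h, 7.78% after 48 h and 8.31% after 96 h. Genes that peaked at 8 h were later on both sides of the pulse, with medians of 14.5% at 0 h, 24.1% after 2 h, 57.1% after 4 h, 58.4% after 16 h, 26.5% after 24 h, 8.73% after 48 h and 6.72% after 96 h. Only 5 of these 54 were at 50% or more of their peak by 2 h. These values describe the pulse that the rule chose and were not tested. In the heat map every pulse gene is drawn in each of the 32 samples, and the plot of sample means shows both sets of genes side by side.

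The split at 4 h or 8 h was a matter of small differences for some genes. Among the 54 genes highest at 4 h, 13 were within 0.25 of that value at 8 h, 8 after 2 h and 2 after 16 h, and among those highest at 8 h, 9 were within 0.25 after 4 h and 13 after 16 h (deposited log2 scale). All 4 samples of the peak lay above all 4 samples of 0 h for 106 genes, the exceptions being Aspa and Pdgfrb. They lay above all 4 samples of 96 h for all 108. The margins of the rule were set on these same samples and nearly ensure this. The share over all genes is not given, so nothing is read from these counts. At 0 h, 10 genes had at most 3 reads in every sample, and at 96 h 19 did. All 108 passed the filter on low counts used for the tests, which the height of the peak nearly ensures.

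**Figure D1:**
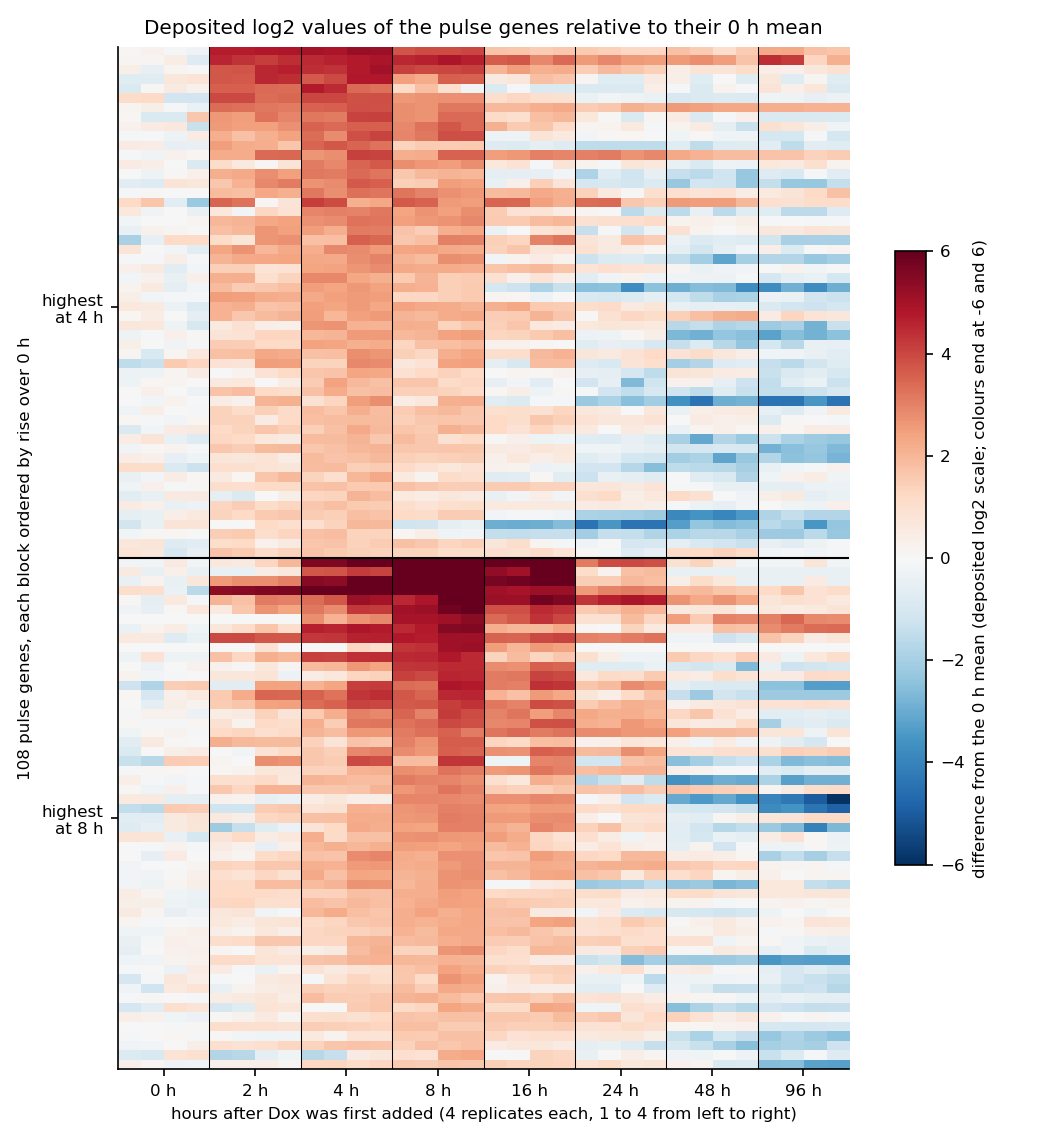
Rows are the 108 pulse genes, in a block of 54 highest at 4 h and a block of 54 highest at 8 h, and columns are the 32 samples in order of time. Colour is the deposited log2 value minus the gene's own 0 h mean, so red is above and blue below the uninduced cells. The upper block is red from 2 h, whereas the lower block is reddest at 8 h and 16 h, and both fade by 48 h.

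**Figure D2:**
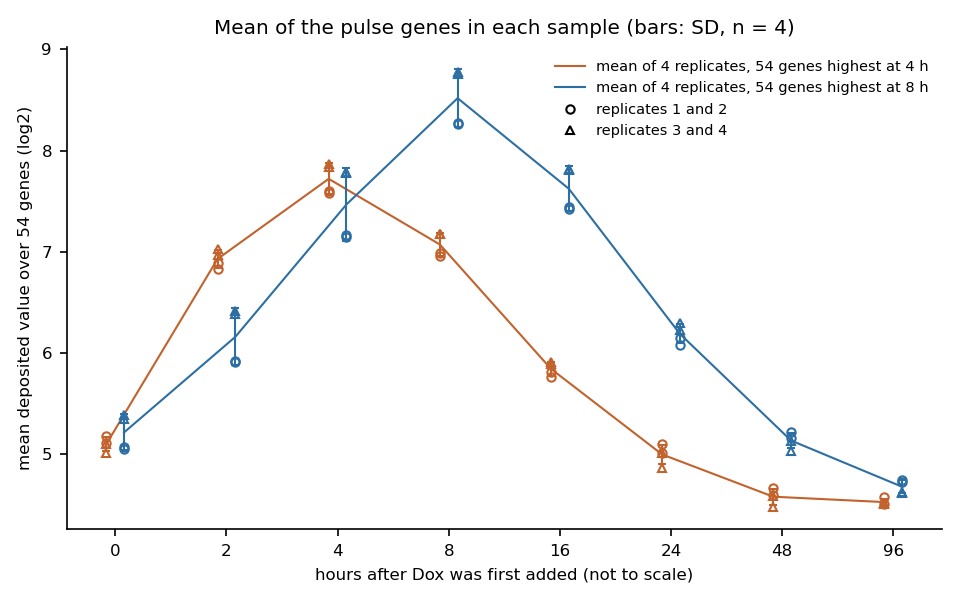
Each point is the mean deposited value of the 54 genes in 1 sample, with circles for replicates 1 and 2, triangles for replicates 3 and 4, lines for the mean of 4 and bars for the SD. The genes highest at 4 h averaged 7.72 ± 0.15 after 4 h and those highest at 8 h 8.52 ± 0.29 after 8 h, where the triangles lie above the circles.

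The genes were sorted by the role of their product after their values were known, and these groups carry no test. Receptors held 8 genes, 6 of them highest at 8 h, and stood a median of 4.18 above 0 h at the peak on the deposited log2 scale, the largest median of the groups. Ptafr encodes the G-protein-coupled receptor for platelet-activating factor, a phospholipid messenger. At 0 h the replicates had normalized counts of 0, 0, 0.806 and 0, and at 2 h 1.04, 0.755, 3.52 and 8.21. They reached 161, 159.9, 237 and 229.7 after 4 h and 1209, 1159.8, 1522 and 1492 after 8 h. They were still at 659, 661, 985 and 1023 after 16 h, at 24.0, 45.7, 46.7 and 43.2 after 24 h and at 0, 0, 1.26 and 0 after 96 h. No sample of 4, 8 or 16 h overlapped with any sample of 0, 2, 48 or 96 h. The 8 h mean was at least 377-fold above 0 h and at least 416-fold above 96 h, and its rise of 8.62 on the deposited scale was the largest of the 108.

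Pla2g7 encodes the secreted phospholipase that inactivates platelet-activating factor, and it too was highest at 8 h. Its replicates were at 35.9, 34.6, 9.67 and 1.89 at 0 h, 838, 876, 979 and 1009.6 after 2 h, 1626, 1616, 1994 and 1929 after 4 h and 1817, 1843, 2227 and 2177 after 8 h. The enzyme thus came on before the receptor, with 45.9% of its peak by 2 h against 0.251% for Ptafr. It was at 674 ± 44.8 after 16 h and 41.6 ± 11.4 after 96 h. Exons of Pla2g7 share bases with the non-coding 1700071M16Rik on the other strand, which was highest at 2 h (71.3 ± 20.4). The library kit kept the strand, but the strand setting of the counting was not given in the sources used here.

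Grm6 encodes a metabotropic glutamate receptor known from retinal bipolar cells. Its replicates were at 0, 0.679, 0 and 1.89 at 0 h, 18.7, 22.6, 22.3 and 27.1 after 2 h, 174, 165, 315 and 325 after 4 h and 531, 545, 702 and 755 after 8 h. At 16 h they were at 206, 219.9, 386 and 340.0, and at 24 h at 6.01, 6.26, 10.2 and 8.97. The 8 h mean was at least 178-fold above 0 h. Gm12660, an antisense RNA that shares exon bases with it, was at 9.65 ± 3.13 after 8 h and had 0 reads at 0 h.

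Ffar3, a receptor for short-chain fatty acids, was at 6.90, 3.40, 76.6 and 81.2 at 0 h and 288, 286, 839.9 and 791 after 8 h, and had at most 1 read per sample at 96 h. At both times the last 2 replicates were the high ones. Il22ra1, a subunit of the interleukin 22 receptor, was at 0, 2.04, 0 and 0 at 0 h, 57.3, 55.7, 69.8 and 72.8 after 4 h, 75.4, 79.5, 97.2 and 75.3 after 8 h and 4.35, 8.15, 3.99 and 6.04 after 16 h. Erbb3, a receptor for neuregulins, was already at 318 ± 41.8 at 0 h, reached 1158 ± 154 after 4 h and ended at 49.7 ± 9.36. Pdgfrb, a receptor for platelet-derived growth factor, was at 20.7, 18.3, 74.2 and 81.2 at 0 h and 85.6, 77.7, 212 and 224 after 8 h, so that its samples of both times overlapped.

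Nrp2 encodes neuropilin 2, a co-receptor for class 3 semaphorins and VEGF. Its replicates were at 312, 321, 61.3 and 60.4 at 0 h, 2298, 2293, 1505 and 1578 after 2 h and 2361, 2336, 2070.2 and 2129 after 4 h. They were at 891, 957, 988 and 979.9 after 8 h and 107, 124, 114 and 104 after 24 h. At 0 h, replicates 1 and 2 were well above replicates 3 and 4, whereas at 4 h all 4 were close. The 4 h mean was 11.8-fold above the 0 h mean.

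**Figure D3:**
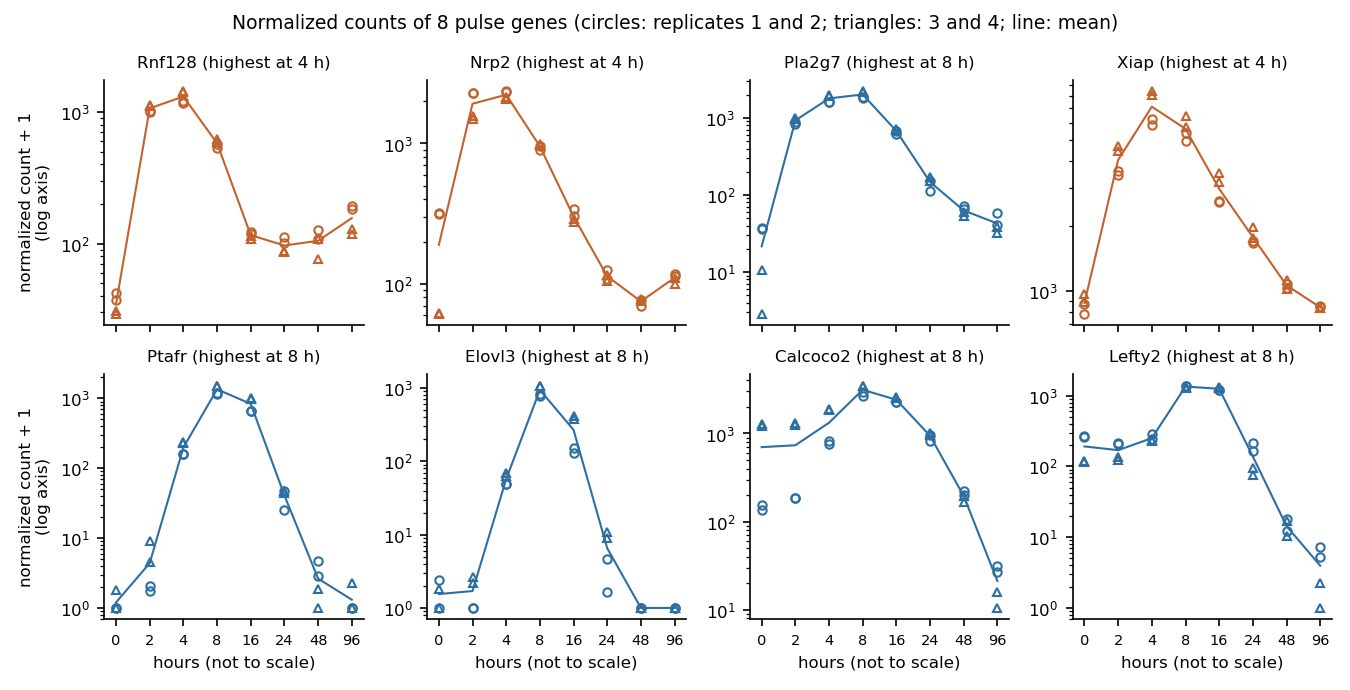
Each panel gives the normalized count + 1 of a gene on a log axis at the 8 time points, with circles for replicates 1 and 2, triangles for replicates 3 and 4 and a line through the means. Rnf128 and Nrp2 were near their peak by 2 h, Ptafr and Elovl3 went from at most 0.806 and 1.38 at 0 h to 1346 and 944 after 8 h, and in Calcoco2 the replicate sets were apart at 0 h and 2 h.

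Sequences before the start were read from RefSeq promoters (GRCm38.p6), 300 bases each, from 250 before to 50 after a start, which were available for 79 of the 108 symbols. The whole promoters of Ptafr and Grm6 are shown because these receptors had the largest rises of the group, with motifs of the searched kinds in capitals.
Ptafr, chr4:132563817-132564116, plus strand: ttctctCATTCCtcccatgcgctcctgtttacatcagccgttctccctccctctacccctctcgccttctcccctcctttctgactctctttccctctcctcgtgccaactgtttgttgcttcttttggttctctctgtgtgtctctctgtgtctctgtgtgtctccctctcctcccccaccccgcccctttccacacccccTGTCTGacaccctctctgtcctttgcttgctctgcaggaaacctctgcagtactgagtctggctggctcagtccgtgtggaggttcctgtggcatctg
Grm6, chr11:50850435-50850734, plus strand: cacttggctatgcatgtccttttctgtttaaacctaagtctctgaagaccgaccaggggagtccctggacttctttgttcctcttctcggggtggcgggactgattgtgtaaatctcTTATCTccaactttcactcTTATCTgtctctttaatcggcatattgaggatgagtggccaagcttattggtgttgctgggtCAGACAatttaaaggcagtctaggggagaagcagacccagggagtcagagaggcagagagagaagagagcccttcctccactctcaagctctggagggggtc
In Ptafr the capitals mark a TEAD motif (GGAATG, read here on the opposite strand as CATTCC) 244 bases before the start and a SMAD motif (CAGACA, read here as TGTCTG) 48 bases before it. Grm6 held the GATA motif AGATAA at 133 and 114 bases before the start, both on the opposite strand as TTATCT, and a SMAD motif 52 bases before it. The GATA motif was also found in Ffar3, 226 bases before the start, and in Il22ra1, 204 bases before it, shown here with 12 bases on each side and the motif in capitals.
Ffar3, GATA, chr7:30856387-30856416, minus strand: tctaagagaaggAGATAAaggcaaagcagg
Il22ra1, GATA, chr4:135727943-135727972, plus strand: agtcaccagaccAGATAAacaagcccttcc
Over all members the GATA motif was in 5.94% of 101 member promoters against 11.2% of all promoters, so these matches describe single genes only. A match describes letters and not binding.

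Ligands and inhibitors of signalling pathways held 11 genes, 6 highest at 4 h and 5 after 8 h. Lefty2, a secreted inhibitor of Nodal that Nodal signalling induces, was at 264, 269, 117 and 113 at 0 h and at 245, 288, 231 and 236 after 4 h. It then reached 1388, 1383, 1324 and 1276 after 8 h and 1219, 1197, 1316 and 1269.5 after 16 h. At 24 h the replicates were at 162, 216, 75.1 and 94.6, and at 96 h at 6.37, 4.21, 1.26 and 0. Its 8 h mean was 7.04-fold above 0 h and 454-fold above 96 h, so the gene, unlike Ptafr, was well expressed in uninduced cells. Tgfb1, the ligand TGFβ1, was earlier and smaller, at 45.5, 42.8, 20.2 and 13.2 at 0 h, 178, 165, 188 and 160.4 after 4 h, 138, 159, 93.2 and 88.0 after 16 h and 12.7, 9.47, 8.79 and 10.4 after 96 h. Of the 20 Nodal and TGFβ genes on a fixed list, these were the members of the pulse.

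Sema3e, a class 3 semaphorin that guides axons and vessels, was at 1.38, 4.08, 5.64 and 1.89 at 0 h, 7.27, 11.3, 18.8 and 10.7 after 2 h, 189.8, 179, 219 and 207 after 4 h and 167, 206, 346 and 366 after 8 h. It was at 6.87 ± 5.12 after 24 h but at 49.9, 61.0, 74.1 and 75.6 after 96 h, above all samples of 0 h. Efna5, a membrane-bound ligand of Eph receptors, was at 11.0, 10.2, 6.45 and 1.89 at 0 h, 19.7, 12.1, 7.03 and 14.8 after 2 h and 96.9, 82.4, 126 and 143 after 4 h, and 12.5 ± 4.54 after 16 h. Sost, a secreted inhibitor of Wnt signalling, was at 1.03 ± 1.23 after 4 h, 53.4, 56.2, 95.7 and 101 after 8 h, 10.0 ± 2.44 after 16 h, and 0 reads in the 4 samples of 0 h and of 96 h. Pdyn, the precursor of dynorphin peptides, was at 4.30 ± 2.95 at 0 h and 91.9, 111, 93.8 and 78.0 after 4 h. The BMP ligands Bmp8a and Bmp8b, at 96.2 ± 2.96 after 4 h and 60.9 ± 9.34 after 8 h, are close copies of each other, and the division of reads between them is uncertain. Bmp8b also shares exon bases with Ppie on the other strand (454 ± 71.3 at 0 h and 470.1 ± 15.7 after 8 h).

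Genes of epithelia and their basement membrane formed a group of 13, 8 highest at 4 h. Several are known from stratified epithelium rather than from PrE. Tgm1, the transglutaminase that crosslinks the cornified envelope of skin, was at 426, 450.4, 605 and 619.5 at 0 h, 1733, 1776, 2145 and 2230.2 after 4 h and 2101, 2024, 2221 and 2153 after 8 h. It was at 199, 237, 79.2 and 121 after 24 h and 40.3, 49.4, 46.4 and 47.3 after 96 h, below every sample of 0 h. Sbsn, suprabasin, a protein secreted by suprabasal keratinocytes, had at most 3 reads per sample at 0 h and reached 117, 97.4, 85.6 and 104 after 2 h, 108, 121, 136 and 148 after 4 h and 113, 119.6, 151 and 127 after 8 h. At 96 h its replicates were at 105, 90.5, 7.53 and 17, so that only replicates 1 and 2 were high again. Krtdap, another secreted protein of differentiating keratinocytes, was at 9.66, 2.04, 11.3 and 15.1 at 0 h, 150.3, 126, 264 and 286 after 4 h and 172, 146, 306 and 319 after 8 h, with 0 reads after 96 h. Krt13, a keratin of internal stratified epithelia, was at 77.3, 53.7, 51.6 and 52.9 at 0 h and 545, 489, 479.9 and 442 after 8 h, and 2.36 ± 1.17 after 48 h.

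Sbsn, Krtdap and Ffar3 lie next to each other on chromosome 7 (GRCm38, GENCODE M21), Sbsn at chr7:30751471-30756134 and Krtdap at chr7:30787896-30791097 on the plus strand and Ffar3 at chr7:30854330-30856178 on the minus strand. In each case 1 coding gene stands between neighbours. Dmkn, between Sbsn and Krtdap, encodes the keratinocyte protein dermokine and was at 2.96 ± 1.00 at 0 h, 329 ± 30.8 after 8 h and 489.5 ± 49.8 after 24 h, its highest mean, and fell outside the rule. Ffar2, between Krtdap and Ffar3, was at 25.7 ± 21.8 after 4 h. The other neighbouring pairs within the 108 with no coding gene between them were Unc45b and Slfn5 (7945 bases apart), Il22ra1 and Myom3 (7574 bases) and the metalloreductases Steap2 and Steap1 (41738 bases), each pair with its top at the same time.

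The AP-1 motif TGAGTCA, read on the opposite strand as TGACTCA, was in 4.95% of the member promoters against 5.2% of all promoters, so its share was near that of all genes. Most of the matches found were in epithelial genes, a group made after the values were known. The matches, apart from that in Gpnmb, are shown for description with 12 bases on each side and the motif in capitals. In Gpnmb the motif started 9 bases after the transcription start. AP-1 is a dimer of FOS and JUN proteins, which serum and ERK signalling induce.
Sbsn, AP-1, chr7:30751453-30751483, plus strand: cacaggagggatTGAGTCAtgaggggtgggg
Krtdap, AP-1, chr7:30787812-30787842, plus strand: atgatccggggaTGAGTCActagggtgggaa
Krt13, AP-1, chr11:100120593-100120623, minus strand: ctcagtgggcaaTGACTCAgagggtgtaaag
Krt13, AP-1, chr11:100120742-100120772, minus strand: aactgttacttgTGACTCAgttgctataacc
Ecm1, AP-1, chr3:95739615-95739645, minus strand: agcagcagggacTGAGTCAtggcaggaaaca
In Sbsn the motif started 6 bases before the transcription start and in Krtdap 81 bases before it. Krt13 held 2 copies, 183 and 34 bases before 1 of its 2 starts, and Ecm1, an extracellular matrix protein of skin, held 1 copy 64 bases before the start.

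The basement membrane gene Col7a1, the collagen of anchoring fibrils, was at 11.0, 4.08, 8.87 and 7.55 at 0 h, 166, 169, 287 and 325 after 2 h and 272, 257, 346 and 413 after 4 h, 40.8-fold above 0 h. Perp, a desmosomal protein and p53 target, was at 127, 88.3, 90.3 and 94.4 at 0 h, 589, 564, 492 and 472 after 2 h and 504, 562, 601 and 581 after 4 h. Among adhesion molecules, Epcam was at 712, 588, 440.1 and 412 at 0 h and 2363, 2369.6, 3031 and 2866 after 8 h, and Cdh2, N-cadherin, was at 58.0, 57.1, 26.6 and 15.1 at 0 h and 248, 259, 164 and 159 after 4 h. Msln, the cell surface protein mesothelin, was at 2.76, 0.679, 5.64 and 1.89 at 0 h and 156, 198, 558 and 611 after 8 h, 139-fold above 0 h, with the last 2 replicates well above the first 2.

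Markers of other cell types were read beside these genes. The summed normalized count of 9 trophoblast markers over samples was 525 to 749.8 at 0 h, 1371 to 2258 after 4 h and 1646 to 2529 after 8 h. It was 1178 to 1468 after 24 h and 8204 to 11196 after 96 h. At 0 h Tfap2c was the highest of them, at 398 ± 109, beside Krt8 at 133 ± 14.4 and Krt18 at 31.6 ± 9.40. At the later times given, most of the sum came from the keratins Krt8 and Krt18, which PrE also makes. Of the 8 markers that were tested, 3 were called higher at 4 h and 3 after 8 h, at both times Krt8, Krt18 and Gata3. The 1 called lower at 8 h was Tfap2c, also a trophoblast factor. Tfap2c was at 152 ± 31.2 after 4 h and 84.8 ± 13.6 after 8 h, a log2 fold change of -2.19 at 8 h against 0 h. Gata3, a defining trophoblast factor, was among the higher ones, at 1.36 ± 1.21 at 0 h, 13.1 ± 6.86 after 4 h and 12.9 ± 6.61 after 8 h. Elf5 had 0 reads at 0 h and was at 6.47 ± 1.98 after 4 h and 3.0 ± 0.686 after 8 h, and Cdx2 was at 26.2 ± 22.3, 27.2 ± 17.2 and 11.0 ± 5.71 at these times. The 10 feeder fibroblast markers summed to 22.7 to 28.2 at 0 h, 90.9 to 133 after 4 h and 126 to 138 after 8 h. Most of the sum at 4 h and 8 h was the transcription factor Twist1. Twist1 was at 12.8 ± 1.73, 99.7 ± 16.3 and 113 ± 7.57 at 0, 4 and 8 h. Of the 10 markers, 7 had at most 3 reads in every sample at 8 h. The part of other cell types in the pulse was not tested.

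Enzymes and transporters were the largest group, with 20 genes, 10 highest at each time. Elovl3, a fatty acid elongase of skin and brown fat, was at 1.38, 0, 0.806 and 0 at 0 h, 0, 0, 1.17 and 1.64 after 2 h, 47.5, 48.5, 68.2 and 61.5 after 4 h and 841, 790.2, 1081 and 1064 after 8 h. It was at 153, 127, 381 and 409.9 after 16 h and 3.60, 0.626, 8.12 and 9.78 after 24 h, and had 0 reads in the 8 samples of 48 h and 96 h. The 8 h mean was at least 265-fold above 0 h. Pitx3, which shares exon bases with it on the other strand, was at 1.58 ± 0.59 after 8 h. Slc6a12, a transporter of betaine and GABA, was at 0, 0, 3.22 and 3.78 at 0 h, 61.3, 58.9, 108 and 102 after 2 h and 58.3, 72.7, 136 and 133 after 4 h, with replicates 3 and 4 high at all 3 times. Cyp11a1, the enzyme that starts steroid synthesis, was at 4.01 ± 2.83 at 0 h and 83.1 ± 5.47 after 4 h, and Tph1, the first enzyme of serotonin synthesis, at 1.83 ± 1.32 and 69.3 ± 26.1. Mmp9, a matrix metalloproteinase, was at 2.76, 4.76, 4.84 and 1.89 at 0 h and 86.4, 59.8, 146 and 118 after 8 h.

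Regulators of transcription and chromatin held 13 genes. Bhlhe22, a neural bHLH factor, was at 1.38, 0, 0 and 11.3 at 0 h and 43.5, 41.2, 83.4 and 88.4 after 4 h, with 0 reads after 96 h. Pou3f2, a POU factor of neural progenitors, was at 10.8 ± 8.11 at 0 h, 77.7 ± 36.9 after 2 h and 132 ± 46.5 after 4 h. Emx2, a homeobox factor of forebrain and urogenital tissue, had 0 reads in all samples of 0 h and 2 h. It was at 14.8, 7.27, 13.6 and 16.5 after 4 h, 84.9, 87.5, 96.4 and 122 after 8 h, 2.75 ± 2.30 after 24 h and 19.1, 27.3, 16.3 and 16.1 after 96 h. Hmga2, an architectural chromatin protein, had a plateau rather than a spike, at 307 ± 26.7 at 0 h, 1601 ± 299 after 4 h, 1695 ± 332 after 8 h, 1365 ± 72.7 after 24 h and 331 ± 33.5 after 96 h.

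Of 5 genes that act in protein turnover or cell death, 3 were among the genes named for their rise or their height. Rnf128, a ubiquitin ligase, was at 35.9, 40.8, 29.8 and 28.3 at 0 h, 1006, 1027, 1103 and 1135 after 2 h and 1223, 1168, 1444 and 1417 after 4 h, and down to 121, 118, 106 and 114 after 16 h. Xiap, an inhibitor of caspases, had the highest peak of the 108 in normalized counts, at 783, 867, 889 and 965 at 0 h, 3441, 3569, 4441 and 4678 after 2 h and 5827, 6212, 8399 and 8018 after 4 h. Its 96 h values of 837, 846, 833 and 829 were close together and lay within the 0 h range. Calcoco2, a receptor that targets bacteria and organelles to autophagy, was at 152, 136, 1294 and 1213 at 0 h, where replicates 3 and 4 were far above 1 and 2, and at 2673, 2924, 3499 and 3435 after 8 h, where the 4 were close. At 96 h it was at 25.5, 30.5, 15.1 and 9.45. Per kilobase of exon, Calcoco2 was the highest at its peak among the genes named for height, with a normalized count of 1933 per kb, followed by the calcium-binding protein S100a6 at 1721 and Epcam at 1211. S100a6 itself went from 110.4, 107, 39.5 and 52.9 at 0 h to 2170.1, 2002, 2619 and 2618 after 8 h and 45.0 ± 16.4 after 48 h. Shkbp1, an adaptor in EGF receptor traffic, went from 268 ± 18.4 at 0 h to 2151 ± 393 after 8 h, and was still at 50.1% of its peak at 24 h. The membrane protein Stom was at 52.7 ± 12.4 at 0 h, 748 ± 92.9 after 4 h and 245 ± 11.8 after 96 h, and Samd5 at 2.54 ± 2.21 at 0 h and 313 ± 98.9 after 8 h.

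Differences between successive time points show when the rise and the fall took place. The rule fixes the time of the top and a fall of at least 1.5 from it by 96 h, so some rise before the top and some fall after it are part of the choice. Only the division of the change over the intervals was not set by it, and an excess over the share of all genes is no finding. The differences were fitted with limma over all 15227 genes whose normalized count reached 10 in 4 or more samples. A gene was called at an adjusted p (Benjamini-Hochberg FDR) below 0.1 together with a change of at least 4-fold, on log2(normalized count + 1). The share of all genes called in the same direction is given beside each count. Where a gene had at most 3 reads per sample at either time, the call rests on the fitted value, and the bound on its fold can be below 4.

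Most genes with their top at 8 h were still climbing between 2 h and 4 h. From 2 h to 4 h, 11 of the 54 were called higher, against 0.558% of all genes. In limma and in limma-voom 0 were called lower, and 1 was lower at an unadjusted p below 0.05. By FDR alone 38 rose, against 13.6% of all genes, and the median log2 fold change was 1.11 (all genes -0.01). Ptafr rose by 5.80 (SE 0.42), adjusted p = 2.5e-11, and Elovl3 rose with an adjusted p = 6e-10. Because Elovl3 and Emx2 had at most 3 reads per sample at 2 h, their folds are bounds, at least 19.9-fold and at least 4.59-fold higher at 4 h. Sema3e (4.01), Grm6 (3.31), Il22ra1 (2.97) and Ffar3 (2.48) also rose, whereas Lefty2 changed by 0.60 (SE 0.39) and was not called (adjusted p = 0.32).

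Genes with their top at 4 h mostly declined between 8 h and 16 h, the interval in which Dox was taken away. Of the 54, 11 were called lower, against 0.539% of all genes, 1 of them with a bound below 4-fold, and 41 fell by FDR alone, against 10.6%. In limma 0 rose, by FDR and fold, by FDR alone or at an unadjusted p below 0.05, and 0 in limma-voom. The median log2 fold change was -1.32 (all genes -0.01). The largest falls were those of Tph1 (-4.27, SE 0.40), the interferon-inducible Slfn5 (-3.62, SE 0.37) and Pdyn, which was at least 7.90-fold lower, with at most 3 reads per sample at 16 h. Efna5 (-2.48), Rnf128 (-2.32, adjusted p = 8e-13) and Slc6a12 (-2.29) fell as well. Tgfb1 changed by -0.36 (SE 0.25) and was not called (adjusted p = 0.39).

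The decline went on between 16 h and 24 h, when cells were in the same medium without Dox. Of the 108 genes, 22 were called lower, against 0.729% of all genes, and in limma and limma-voom 0 were called higher. For 4 of the 22 (Bhlhe22, Il22ra1, Slc6a12 and Sost) the bound was below 4-fold, from 1.61 for Il22ra1 to 3.02 for Bhlhe22. By FDR alone 78 fell, against 14.8%, and 1 rose (1 also at an unadjusted p below 0.05), against 13.3%, namely Rassf4 (0.97). Of these 22, 16 had their top at 8 h and 6 at 4 h. Elovl3, Grm6, Myom3 and Ptafr fell furthest. Elovl3 fell by 5.50 (SE 0.44), adjusted p = 2.2e-10, Grm6 fell by 5.01 (SE 0.38), adjusted p = 5.1e-11, and Ptafr fell by 4.36 (SE 0.42), adjusted p = 6.7e-09. Lefty2 (-3.30), Krt13 (-3.03), Tgm1 (-2.56), Pla2g7 (-2.21) and the muscle protein Myom3 (-4.39) also fell. Emx2 fell at least 11.1-fold, since at 24 h it had at most 3 reads per sample. The median log2 fold change of the 108 was -1.05, and all genes had -0.01. Hmga2 changed by 0.01 (SE 0.12) and was not called (adjusted p = 0.97).

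The interval from 24 h to 48 h shares the 24 h samples with the one before. In it 17 of the 108 were called lower, against 1.41% of all genes, and 1 higher, against 2.51%. For 2 of the 17 (Acp7 and Elovl3) the bound was below 4-fold, 2.88 and 1.56. By FDR alone 65 fell, against 27.8% of all genes, and 11 rose, against 29.8%. The median log2 fold change was -0.76 (all genes 0.00). S100a6 fell by 3.89 (adjusted p = 8.7e-13) and Lefty2 fell by 3.18 (adjusted p = 8.5e-08). Ffar3 (-3.42), Cdh2 (-2.81), Krt13 (-2.69), Msln (-2.30) and Calcoco2 (-2.27) fell too, and Ptafr fell at least 11.2-fold and Krtdap at least 6.47-fold. The gene called higher was Ano1, a chloride channel, with an adjusted p = 0.00036. It had at most 3 reads per sample at 24 h, so that only a bound holds, at least 1.49-fold higher at 48 h, and a 4-fold rise is not shown. Its level at 48 h was 1.88, 7.54, 5.28 and 6.19. The count of genes called higher was 2 without replicate 1, 2 or 4, 0 in replicates 1 and 2 alone and 3 in replicates 3 and 4 alone.

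The level at 96 h is set beside that at 0 h as a description with no test, since the rule used both means. A gene that ended far above 0 h could seldom meet the margin at 96 h, so the choice itself lowers the number that end higher, and nothing is read from the shares of all genes. By the call used above 24 of the 108 were lower at 96 h, where 10.3% of all genes were, 3 of them with a bound below 4-fold, and 5 were higher, where 9.28% of all genes were. The median log2 fold change was -0.45 (all genes -0.03). The lower genes included several that uninduced cells had expressed. Lefty2 changed by -5.85, Calcoco2 changed by -4.46, Tgm1 changed by -3.47 and Krt13 changed by -3.43. Cdh2 (-2.70) and Erbb3 (-2.66) were lower as well, and Gpnmb and Ffar3, with at most 3 reads per sample at 96 h, were at least 18.2-fold and at least 13.0-fold lower.

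The 5 genes called higher at 96 h than at 0 h were Rnf128 (2.15, SE 0.14), Stom (2.23, SE 0.14), Sbsn, Sema3e (4.06, SE 0.40) and Emx2. By FDR alone 23 of the 108 were higher and 49 lower. The share of all genes by FDR alone is not given, and nothing is read from these counts. Sbsn and Emx2 had at most 3 reads per sample at 0 h and were at least 15.4-fold and at least 5.53-fold higher at 96 h. Among genes not called, Xiap changed by -0.06 (SE 0.11), Nrp2 by -0.34 (SE 0.32) and Hmga2 by 0.11 (SE 0.12). Medians were also taken with genes at the floor set to their bound, and genes at it on both sides left out. They were 1.12 for 4 h against 2 h (genes highest at 8 h) and -1.32 for 16 h against 8 h (genes highest at 4 h). For all members they were -1.03 for 24 h against 16 h, -0.76 for 48 h against 24 h and -0.4 for 96 h against 0 h.

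**Figure D4:**
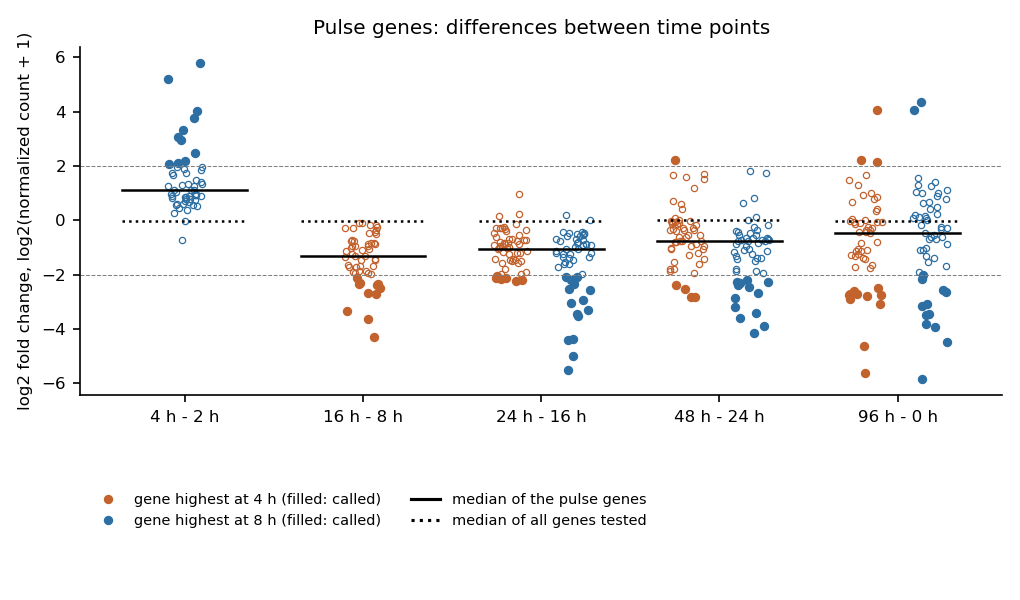
Points are single pulse genes in 5 differences between time points, orange for genes highest at 4 h and blue for genes highest at 8 h, filled where called. The y axis is the log2 fold change, dashed lines mark 4-fold, the solid bar is the median of the pulse genes and the dotted bar that of all genes tested. The median is 1.11 from 2 h to 4 h for the 54 genes highest at 8 h. It is -1.32 from 8 h to 16 h for the 54 highest at 4 h. For all 108 it is -1.05 from 16 h to 24 h and -0.76 from 24 h to 48 h. The gene sets differ, so these medians are not 1 series. The medians of all genes stay near 0.

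Against 0 h the rule had fixed the direction, so the following counts describe the members only. At 2 h, 36 of the 108 were at least 4-fold above 0 h by the same call, where 2% of all genes were, 26 of them genes with their top at 4 h and 10 with their top at 8 h. At 4 h 2.69% of all genes were called higher and 0.709% lower, and at 8 h 3.4% higher and 1.31% lower.

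Genes of known programmes were looked up on fixed lists. The 16 lists held 270 genes with a row, of which 7 (2.59%) were in the pulse, and of all 25093 rows with a symbol 108 (0.43%) were. Rows with a symbol include genes too low to reach the rule's height, and only 13340 genes with a symbol were tested. The share of 0.43% is therefore not a like background for lists of expressed genes, here or below. On these lists of pathways and cell programmes, the members of the pulse were Cdh2 among 16 formative epiblast genes, Hmga2 among 30 growth factor response genes, Lefty2 and Tgfb1 among 20 Nodal and TGFβ genes, Perp among 18 p53 targets, and Efna5 and Sema3e among 19 guidance and migration genes. Lists of the PrE network (20 genes), naive pluripotency (17), primitive streak (14), SRF and YAP targets (20), NF-κB targets (17), the amino acid response (20), heat shock (10), ribosome biogenesis (17), the circadian clock (15), Wnt targets (14) and the Notch and BMP response (13) held 0 members of the pulse. With the members of the pulse left out, the lists were called against 0 h as follows. Of 25 tested growth factor response genes, 8 were higher at 4 h and 8 at 8 h. Of 16 tested Nodal and TGFβ genes, 1 was higher and 1 lower at 8 h. Of 16 tested guidance genes, 1 was higher at each time and 2 were lower at 8 h. Of 13 tested formative epiblast genes, the 4 h call held 1, which was lower, and the 8 h call held 2 in each direction. Of the 20 PrE network genes, 4 were higher at 4 h and 15 at 8 h, and of 13 tested Wnt targets 7 were lower at 4 h and 6 at 8 h, with 1 higher at 8 h. Of 17 tested naive pluripotency genes, 1 was lower at 4 h and 7 at 8 h. Of 17 tested SRF and YAP targets, 4 were higher at 4 h and 5 at 8 h. Of 13 tested NF-κB targets, 3 were higher at 4 h and 1 at 8 h. Of 10 tested Notch and BMP response genes, 3 were higher at 4 h and 1 at 8 h. Of 8 tested primitive streak genes, 1 was higher and 3 were lower at each time. Of 16 tested p53 targets and of 14 tested clock genes, 1 each was lower, at 8 h. Of the amino acid response (20 tested), heat shock (9) and ribosome biogenesis (17) genes, 0 were called. These counts stand against the shares of all genes given above for 4 h and 8 h.

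Of the study's own lists, that of 571 PrE genes with a row shared 1 gene, Shkbp1, with the pulse (0.175% of the list), and that of 218 epiblast genes shared 3 genes, Aire, Epcam and Tor3a (1.38%), where 0.43% of all rows with a symbol were in the pulse. Aire, the regulator of self-antigen expression in the thymus, was at 17.1 ± 18.1 at 0 h and 141 ± 96.2 after 4 h. It shares exon bases with Dnmt3l on the other strand. Tor3a, an ATPase of the endoplasmic reticulum, was at 115 ± 88.6 at 0 h and 295 ± 47.5 after 4 h.

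Many but not all of the genes chosen on 1 replicate set also had the pulse in the other, and its size was not the same. What the sets were is not known, so they are not taken as independent repeats. Chosen by the same rule on replicates 1 and 2 alone, 94 genes had a pulse. In replicates 3 and 4, which had no part in that choice, 64 of the 94 were at least 4-fold above both 0 h and 96 h by limma, against 1.38% of all genes at 4 h and 1.36% at 8 h. The highest mean was at the same time for 78 and at 4 h or 8 h for 85. Chosen on replicates 3 and 4, 141 genes had a pulse, of which 71 were called in replicates 1 and 2, against 1.01% at 4 h and 1.19% at 8 h. In that case the highest mean was at the same time for 110. Both choices shared 68 genes.

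The 54 genes highest at 8 h were on average higher in replicates 3 and 4 than in 1 and 2. The difference of the means was 0.31 at 0 h, 0.49 after 2 h, 0.63 after 4 h, 0.5 after 8 h and 0.38 after 16 h on the deposited log2 scale, with 46 of 54 genes higher at 4 h and 47 after 8 h, and 0.15 after 24 h. The mean difference over all genes tested was 0.11 after 4 h and 0.06 after 8 h. For the genes highest at 4 h it was 0.26 after 4 h. Single genes differed more, and in both directions. At 8 h, Calcoco2 stood above 0 h by 4.23 in replicates 1 and 2 and by 1.46 in replicates 3 and 4, and Pla2g7 by 5.48 and 7.80. At 4 h, Nrp2 stood above 0 h by 2.87 and 4.98. The 0 h levels were the part that differed in Calcoco2, Pla2g7 and Nrp2. Differences between the replicate sets were not tested, and no source gives a cause.

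**Figure D5:**
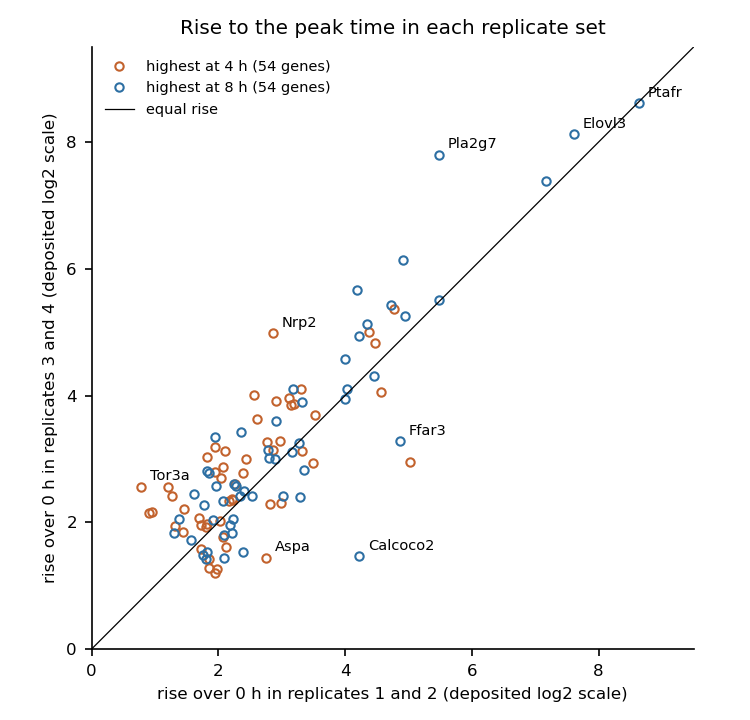
Each point is 1 of the 108 pulse genes, with the rise from the 0 h mean to the mean at its peak time in replicates 1 and 2 on the x axis and in replicates 3 and 4 on the y axis, both on the deposited log2 scale. Ptafr and Elovl3 lie near the line of equal rise, Pla2g7 (5.48 and 7.80), Nrp2 (2.87 and 4.98) and Tor3a (0.79 and 2.56) above it, and Calcoco2 (4.23 and 1.46) and Ffar3 (4.87 and 3.28) below it.

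Over all members, the shares of promoters with a motif were near or below those of all promoters for most motifs. Among 101 promoters of the 79 matched members, the GATA motif was found in 5.94%, against 11.2% of all 32851 promoters, and AP-1 in 4.95% against 5.2%. Among 71 promoters of genes with the top at 2 h, both were found in 15.5%. The cyclic AMP response element (CRE, TGACGTCA) was in 2.97% against 1.79%, ETS (CCGGAAGT) in 1.98% against 3.89%, the E-box CACGTG in 7.92% against 7.15%, the CArG box bound by SRF in 1.98% against 1.63%, TEAD in 11.9% against 14.7%, TCF/LEF (TTTGAT) in 6.93% against 11.9%, SMAD in 19.8% against 21% and the TATA box motif, spelled TATAAA, in 17.8% against 13.6%. Both strands were searched. CRE, the E-box and the CArG box can read alike on both strands and were counted once a promoter. Apart from the CArG box, which can hold TATAAA, no motif of this set contains another. The shares are a description. The search covered 300 bases at the start.

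All 108 genes are protein coding and they lie on 19 chromosomes. Their median span was 18398 bases, against 15852 for genes with the top at 2 h, 29508 for those with the top at 16 h or 24 h and 23724.5 for all tested genes with a symbol. Exons of 5 of the 108 share bases with another gene on their own strand (Col7a1, Cyp11a1, Ecm1, Sbsn and Shkbp1), and exons of 23 with a gene on the other strand. Tmem147os and Gm20479, the partners of Sbsn and Shkbp1, had 0 reads in all samples. For Bmp8a and Bmp8b, Ly6a, Pramel6 and Tubb2a, reads may be split among near-identical family members, and their levels are uncertain.

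The limits of the rule were close to some genes on each side. The smallest margins inside were 1.53 for Fjx1, 1.53 for Ecm1 and 1.54 for Aebp1, and the largest margins outside were 1.4996 for Khnyn, 1.49 for Srrm4 and 1.48 for Lgals3. The lowest peaks inside were 6.04 for Plek2, 6.05 for Bmp8b and 6.05 for Bhlhe22, and the highest outside were 5.997 for Ube2ql1, 5.99 for Gm13128 and 5.86 for Mmp28, all on the deposited log2 scale.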

How the data were processed

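For 32 RNA-seq samples the authors deposited variance-stabilized values on a log2 scale, made with DESeq2, in 1 table. According to the methods and the labels, poly(A) libraries from a stranded kit were trimmed with cutadapt 2.7, checked with FastQC 0.11.8, aligned to GRCm38.p6 with HISAT2 2.1.0, and counted with featureCounts (Subread 1.6.4) on GENCODE annotation. The transformation was inverted from the lowest value in every column (1.58, no reads), which gave whole reads for 100% of the values, within 1e-06. Intervals and limits from reads cover counting error only. The pulse genes, gene lists and tests were chosen with earlier results of these data known. The genes described first are those with the 8 largest rises at 4 h and at 8 h, the 8 highest peaks, members of the fixed lists and genes at the limits of the rule. Some genes that these criteria select are not reported here. Other genes in the text were chosen after their values were seen, for their role, their neighbours or their change in a test. log2(normalized count + 1) was tested with limma 3.58.1 in R 4.3.3 (lmFit, contrasts, eBayes with trend) over all 32 samples, since the deposited unit is not counts. Tables were handled in Python 3.11.15 with numpy 2.4.6 and pandas 2.3.3. Same-numbered samples deviated together (mean correlation 0.196) no more than samples of the other number in the same set (0.196), so the numbers were not taken to pair the samples. Coordinates are from GENCODE M21, promoters from RefSeq, both on GRCm38. limma-voom on the whole reads was an alternative, and other alternatives covered the pseudocount, filter, scaling, blocks, samples, FDR and rule.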

Additional observations from a re-analysis of the deposited data

Results flagged for a closer look

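Of 50 groups of 4 samples examined, 2 held a sample far from the others by Dixon's ratio, the gap to the nearest sample divided by the range, measured against its 95% critical value. Chance alone flags about 1 group in 20. The first was the mean of the 54 genes with their top at 4 h in the 96 h samples, with a ratio of 0.862. The second was Aebp1, a matrix protein near the limit of the rule, at 4 h, with normalized counts of 115, 79.95, 113 and 120.5 in the 4 replicates and a ratio of 0.845, replicate 2 being the low one.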

How the results depend on the processing

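Of 171 counts under the alternatives, 157 stayed within 1.5 times the reported count and 14 did not. Of 584 values of named genes, 556 kept their direction and their side of the threshold, 28 kept their direction but missed the threshold, and 0 reversed. A margin of 2 in place of 1.5 left 69 genes in the pulse. The number of genes lower at 24 h than at 16 h was 13 with a pseudocount of 5, 14 with a mean normalized count of at least 50 and 14 on the deposited values without inversion. The number higher at 48 h than at 24 h was 0 with a pseudocount of 5, 0 on the deposited values, 3 with limma-voom, 0 in replicates 1 and 2 alone and 3 in replicates 3 and 4 alone. The number lower at 16 h than at 8 h was 5 with a mean normalized count of at least 50, and the number higher at 4 h than at 2 h was 7 with a pseudocount of 5. A larger pseudocount shrinks folds of low genes by its construction, and the higher minimum tests fewer genes. For the other settings the cause was not tested. Without 1 replicate at a time, the pulse held 96 to 121 genes, 17 to 23 were lower at 24 h than at 16 h, 17 to 18 lower and 1 to 2 higher at 48 h than at 24 h, 21 to 25 lower and 5 to 7 higher at 96 h than at 0 h, 11 to 13 lower at 16 h than at 8 h, and 11 to 13 higher at 4 h than at 2 h. The settings that use replicates 1 and 2 or replicates 3 and 4 alone were chosen after seeing the data. The named genes that missed the threshold under some setting were Bhlhe22, Slc6a12 and Sema3e at 24 h against 16 h, Elovl3 at 48 h against 24 h, Slc6a12 at 16 h against 8 h, and Emx2 and Samd5 at 4 h against 2 h. On the strand of the gene alone, the GATA motif was in 4.95% of member promoters against 5.86% of all promoters. The gap for GATA was thus smaller than with both strands. AP-1 was in 2.97% against 2.74%. Upper-quartile scaling shifted the median of all genes by -0.11 at 48 h against 24 h and turned no call of a named gene around.

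A fit with a replicate block gave counts of 22 lower at 24 h than at 16 h and 24 lower at 96 h than at 0 h, and no count moved. Same-numbered samples did not deviate together more than other samples of their set, so the numbers do not pair the samples.

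Reads limit the low end. Genes with at most 3 reads in every sample of a time point have only a bound on their fold there, and differences between such levels were not detectable at this depth. Promoters covered 79 of the 108 genes, and sequence outside these windows was not searched. With the medium and Dox changed together, the data hold no sample that separates them.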
